A study of Danio rerio with 12 samples.

Results

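The miR-23, miR-24 and miR-27 miRNAs of the zebrafish caudal fin were followed from the uninjured fin to the regenerate. The members were all rows of the small RNA table named miR-23, miR-24 or miR-27 followed by a letter or a hyphen, which gave 8 of the 148 miRNA rows: miR-23a-3p, miR-23b-3p, miR-24-3p, miR-27a-5p, miR-27b-3p, miR-27c-3p, miR-27d-3p and miR-27e-3p. The rule used names alone and no measured value. Regenerating tissue collected at 4 days post-amputation (dpa), when a blastema caps the stump, was set against fin tissue taken at 0 dpa, at the time of amputation. All fish were adults of the Ekkwill line, amputated under MS222 anaesthesia with no other treatment or genetic change named. Small RNA libraries and polyA+ mRNA libraries were each made in triplicate per day, 12 libraries in all, and each replicate was a pool of several fins, so differences between single fish cannot be seen. The labels number the libraries of each day and do not say whether the numbers link the days.

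miRNAs are short RNAs that guide Argonaute proteins to mRNAs, mostly through the seed, the bases near the 5′ end that pair with the target and lower its translation or stability. miR-23, miR-27 and miR-24 genes lie next to each other in vertebrate genomes and are made from shared primary transcripts, from which the hairpins are then cut out and processed one by one, so mature miRNAs of a cluster need not keep a fixed ratio. In mice and in zebrafish these clusters are known from blood vessel growth, where miR-23 and miR-27 act in sprouting endothelium, and in mammals they are also known from muscle wasting, fat cell formation and the exit from the cell cycle. A pooled fin holds skin, bone-forming cells, fibroblasts, nerves, vessels and blood, and in bulk RNA fewer cells of a type and less RNA per cell cannot be told apart.

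The tag sequences are shown because each row of the table counts 1 exact tag, and the members differ from each other by few bases. They are taken from the study's supplementary annotation, 5′ to 3′, with the seed (bases 2 to 8) in capitals.
miR-23a-3p: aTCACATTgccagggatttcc
miR-23b-3p: aTCACATTgccagggattaccact
miR-24-3p: tGGCTCAGttcagcaggaac
miR-27a-5p: aGGACTTAgctcactctgtgaaca
miR-27b-3p: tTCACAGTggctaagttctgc
miR-27c-3p: tTCACAGTggttaagttctg
miR-27d-3p: tTCACAGTggctaagttctg
miR-27e-3p: tTCACAGTggctaagttcagt

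The 8 tags carried 4 seeds. Both miR-23 rows shared TCACATT, the 4 miR-27 3p rows shared TCACAGT, miR-24-3p had GGCTCAG, and miR-27a-5p, which comes from the other arm of its hairpin, had GGACTTA. None of the other 140 rows had any of these seeds. Counting from 1 at the 5′ end, miR-23a-3p differed from miR-23b-3p by T19A over their 21 common bases. The miR-27b-3p tag differed from miR-27c-3p by C11T and from miR-27e-3p by T19A and C21T. It did not differ from miR-27d-3p over 20 bases, because the miR-27d-3p tag was the miR-27b-3p tag less its last base. That whole tag was found in the annotated miR-27b precursor, and in the miR-27d precursor only its first 19 bases were found. As whole tags, the miR-27b-3p and miR-27d-3p rows thus both matched the annotated miR-27b precursor alone. The assignment of the miR-27d-3p row to the miR-27d gene is the study's. These rows therefore cannot be assigned to separate genes by sequence, and values are given below for each row and for their sum. Only 2 pairs among the 148 rows were related in this way. The last base of the miR-23b-3p tag was in neither of its 2 annotated precursors, while the tag without this base was in both. Only tags of 20 to 25 bases were annotated, and tags of other lengths from the same hairpins are not part of these values.

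In the RefSeq gene order of the GRCz12tu assembly, the family formed 5 clusters with 3 miRNA genes each. The chromosome 2 cluster held mir23a-3, mir27a and mir24b, and the chromosome 3 cluster held mir23a-2, mir27c and mir24-2. The chromosome 8 cluster held mir24-3, mir27b and mir23b-2, inside the span of aopep, an aminopeptidase gene whose mammalian counterpart also hosts a miR-23b cluster. The chromosome 10 cluster held the genes of miR-23b, miR-27d and miR-24, inside the span of apba1b, and the chromosome 22 cluster held those of miR-23a, miR-27e and miR-24. In the study's annotation each miR-27 row named 1 locus, while the miR-23a-3p row stood for 3 loci, the miR-23b-3p row for 2 and the miR-24-3p row for 5. The miR-27 rows thus name single clusters, with the reservation above for miR-27b and miR-27d, and the miR-23 and miR-24 rows pool several.

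The make-up of the small RNA libraries bears on every level below. The 6 libraries held 375761 to 1043151 tags over the 148 rows. Of these tags miR-21, a miRNA of wound and tumour tissue, held 64.1%, 71.1% and 65.5% in the 4 dpa libraries and 12.7%, 10.8% and 8.77% in the 0 dpa libraries. Tags other than miR-21 numbered 278850, 278605 and 255515 in the 4 dpa libraries, against 521658, 930394 and 342820 in the 0 dpa libraries. A row with an unchanged share of these tags thus has fewer unscaled tags at 4 dpa. Levels are log2(tag count + 1), put on a common scale by a trimmed mean of the log ratios of each library to the mean library, and a miRNA was called changed at a limma Benjamini-Hochberg adjusted p under 0.05 over all 148 rows. By this measure 63 miRNAs were called, 42.6% of those tested, 33 of them higher (22.3%) and 30 lower (20.3%) at 4 dpa. Without further scaling, 3 were called higher and 46 lower, and with libraries scaled to all tags, miR-21 included, 7 were called higher and 104 lower. The median log2 fold-change of all miRNAs was −0.06 in the trimmed scaling, −1.09 without scaling and −1.50 with scaling to all tags.

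The family split in both directions. At 4 dpa, 3 members were higher (miR-23b-3p, miR-27a-5p and miR-27b-3p), 4 were lower (miR-23a-3p, miR-24-3p, miR-27c-3p and miR-27e-3p), and miR-27d-3p was not called. The 7 called of 8 compare with 42.6% of all miRNAs, and the members' median log2 fold-change of −0.35 compares with −0.06 over all miRNAs. For 7 members scaled levels had no overlap between days, against 55.4% of all miRNAs, and the deposited tag counts did not overlap for 5, against 52.0% of all miRNAs. Relative to the median of all miRNAs, which takes out the choice of library total, the log2 fold-changes were 2.104 for miR-23b-3p, 1.77 for miR-27a-5p, 1.48 for miR-27b-3p, −0.08 for miR-27d-3p, −0.51 for miR-27e-3p, −0.58 for miR-27c-3p, −1.25 for miR-23a-3p and −1.26 for miR-24-3p. Put together, the members held 5.24%, 5.24% and 5.22% of the tags other than miR-21 in the 4 dpa libraries and 3.02%, 4.23% and 3.40% in the 0 dpa libraries. With miR-21 in the total the order of the days turned, to 1.88%, 1.51% and 1.80% in the 4 dpa libraries against 2.64%, 3.77% and 3.10% in the 0 dpa libraries.

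**Figure D1:**
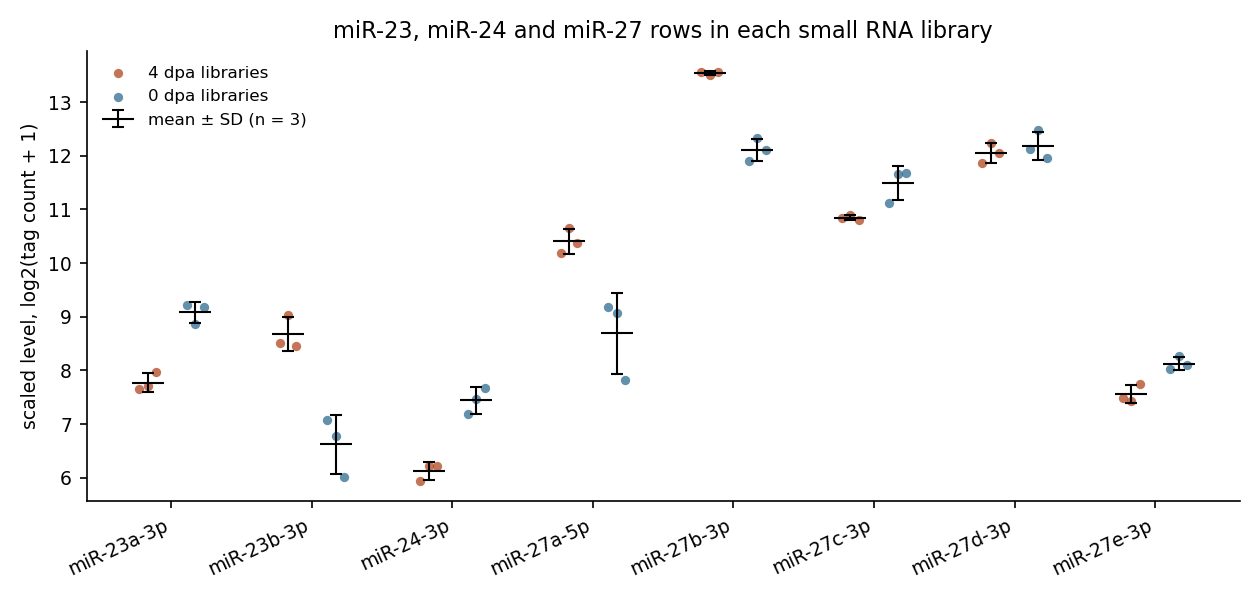
Scaled level, log2(tag count + 1), of each miR-23, miR-24 and miR-27 row in each library; points are libraries and black marks are mean ± SD (n = 3 per day). miR-23b-3p, miR-27a-5p and miR-27b-3p lay higher in all 4 dpa libraries than in any 0 dpa library, 4 rows lay lower, and the miR-27d-3p points overlap.

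Both miR-23 rows share a seed and moved in opposite directions. miR-23b-3p had 273, 365 and 230 tags in the 4 dpa libraries, against 174, 274 and 57 tags in the 0 dpa libraries. These counts overlapped between days, and the scaled levels did not, at 8.52, 9.03 and 8.46 at 4 dpa against 7.08, 6.77 and 6.01 at 0 dpa. The lowest level was that of the 0 dpa library with the fewest tags. The log2 fold-change was 2.05 (adjusted p = 0.00097 in limma, SE 0.31), a 4.14-fold higher level at 4 dpa, which ranked 9 of the 148 miRNAs from the highest. miR-23a-3p had 149, 145 and 163 tags in the 4 dpa libraries, against 769, 1166 and 518 tags in the 0 dpa libraries. Every 4 dpa library had fewer tags than every 0 dpa library, and the scaled levels were 7.65, 7.71 and 7.97 at 4 dpa against 9.22, 8.86 and 9.17 at 0 dpa. The log2 fold-change was −1.31 (adjusted p = 0.00096 in limma, SE 0.20), a 2.48-fold lower level.

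The ratio of the 2 miR-23 rows within a library does not depend on scaling. There were 1.83, 2.52 and 1.41 miR-23b-3p tags per miR-23a-3p tag in the 4 dpa libraries, against 0.226, 0.235 and 0.110 in the 0 dpa libraries. miR-23b-3p was thus the more counted row in each 4 dpa library and the less counted one in each 0 dpa library, a 10.2-fold difference in the mean log ratio. The ratio compares 1 exact tag of 24 bases, the last of them in neither annotated precursor, with 1 of 21 bases. Tags of other lengths from the same hairpins are not counted, and the part of tag length was not tested. Its share of the miR-23 tags was 64.9% ± 6.53 at 4 dpa and 15.8% ± 5.10 at 0 dpa (SD, n = 3 each), with no overlap (two-sided exact permutation p = 0.1, the smallest that 3 libraries against 3 allow).

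miR-24-3p, known in human cells for lowering cell-cycle and DNA repair genes, had the fewest tags of the family at 4 dpa. It had 45, 51 and 48 tags in the 4 dpa libraries, against 186, 443 and 183 tags in the 0 dpa libraries. The groups did not overlap in tags or in scaled level, and the log2 fold-change was −1.31 (adjusted p = 0.0019 in limma, SE 0.23), close to that of miR-23a-3p. The study also measured miR-24 by qRT-PCR. Its text names a fall in axolotl limbs and does not name one for zebrafish fins. There were 3.31, 2.84 and 3.40 miR-23a-3p tags per miR-24-3p tag in the 4 dpa libraries, against 4.13, 2.63 and 2.83 in the 0 dpa libraries. These ratios overlapped, with a difference in mean log2 ratio of 0.00 (exact permutation p = 1.0). The spread of that ratio among 0 dpa libraries was 0.35 on the log2 scale (SD), and so few libraries cannot show that the ratio stayed the same.

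miR-27b-3p, which in zebrafish vessels is known to act on dll4 and spry2, was the most counted member at 4 dpa. It had 9001, 8080 and 7944 tags in the 4 dpa libraries, against 4955, 12899 and 3955 tags in the 0 dpa libraries. The tag counts overlapped, and the scaled levels did not, at 13.55, 13.50 and 13.57 at 4 dpa against 11.91, 12.32 and 12.10 at 0 dpa. The 4 dpa libraries differed among themselves by little (SD 0.04). The log2 fold-change was 1.43 (adjusted p = 0.00025 in limma, SE 0.16), a 2.69-fold higher level. This call depends on how libraries are scaled, with a log2 fold-change of 0.40 (adjusted p = 0.557) without further scaling and −0.02 (adjusted p = 0.946) with scaling to all tags. miR-23b-3p and miR-27a-5p stayed higher in direction in these scalings and were not called, at adjusted p = 0.171 and 0.334 without scaling and 0.0784 and 0.489 with scaling to all tags.

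miR-27d-3p, the tag contained in that of miR-27b-3p, had 2782, 3372 and 2768 tags in the 4 dpa libraries, against 5727, 14322 and 3557 tags in the 0 dpa libraries. Its tag counts did not overlap between days, its scaled levels did, and the log2 fold-change was −0.13 (adjusted p = 0.635 in limma, SE 0.19). With libraries scaled to all tags it was −1.58 (adjusted p = 0.00018). Counted as 1 row, miR-27b-3p and miR-27d-3p tags had a log2 fold-change of 0.83 (limma adjusted p = 0.0033), an alternative chosen after seeing the data.

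miR-27c-3p and miR-27e-3p were lower by less. miR-27c-3p had 1365, 1335 and 1170 tags in the 4 dpa libraries, against 2874, 8135 and 2941 tags in the 0 dpa libraries, and a log2 fold-change of −0.64 (adjusted p = 0.0282 in limma, SE 0.19). miR-27e-3p had 134, 119 and 140 tags in the 4 dpa libraries, against 334, 772 and 244 tags in the 0 dpa libraries, and a log2 fold-change of −0.57 (adjusted p = 0.0442 in limma, SE 0.19). Neither row overlapped between days in tags or in scaled level. The tag counts alone carry the lower 4 dpa totals without miR-21, and those of miR-27d-3p, not called, did not overlap either. Both calls were close to the threshold and were lost when any 1 library was left out, other than 0 dpa library 1. The limma adjusted p then ran from 0.00339 to 0.106 for miR-27c-3p and from 0.0419 to 0.159 for miR-27e-3p, with the direction kept.

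miR-27a-5p was the only 5p row of the family, and its miR-27a 3p partner is not analysed here. It had 870, 1122 and 867 tags in the 4 dpa libraries, against 747, 1357 and 203 tags in the 0 dpa libraries. The tag counts overlapped, the scaled levels did not, and 0 dpa library 3 lay far below the other 0 dpa libraries, at a level of 7.83 against 9.18 and 9.08. The log2 fold-change was 1.71 (adjusted p = 0.0050 in limma, SE 0.35), and without 0 dpa library 3 it was called as well. Over all libraries left out in turn it ran from 1.28 to 1.94.

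The make-up of the miR-27 3p tags, which all carry the same seed, changed between days without reference to any library total. miR-27b-3p held 67.8%, 62.6% and 66.1% of them in the 4 dpa libraries, against 35.7%, 35.7% and 37.0% in the 0 dpa libraries. The means were 65.5% ± 2.63 at 4 dpa and 36.1% ± 0.742 at 0 dpa (SD, n = 3 each), a difference of 29.4 percentage points with no overlap (two-sided exact permutation p = 0.1, the smallest possible). The shares of the other rows were each lower in every 4 dpa library, with means of 23.4% at 4 dpa and 38.0% at 0 dpa for miR-27d-3p, 10.1% at 4 dpa and 23.6% at 0 dpa for miR-27c-3p, and 1.03% at 4 dpa and 2.27% at 0 dpa for miR-27e-3p. With miR-27d-3p tags counted as miR-27b-3p, a choice made after seeing the data, the difference was 14.7 points. These rows count exact tags of 20 or 21 bases, and the part of tag length in the shares was not tested. Their total leaves out tags of the miR-27a 3p arm, which carry the same seed in the study's annotation and have no row here.

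**Figure D2:**
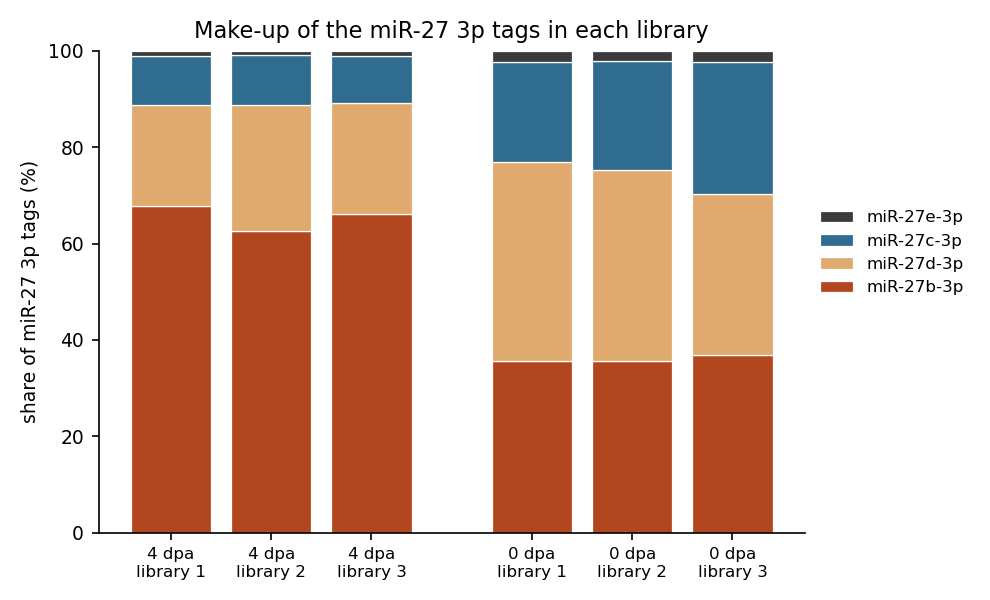
Share (%) of the summed miR-27b-3p, miR-27d-3p, miR-27c-3p and miR-27e-3p tags of each library held by each of these rows. Each bar is 1 library, and miR-27a 3p tags are not in the total. miR-27b-3p held 62.6% to 67.8% at 4 dpa and 35.7% to 37.0% at 0 dpa.

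Of the 28 ratios between 2 members, 23 did not overlap between days, each at an exact permutation p of 0.1 and a Benjamini-Hochberg adjusted p of 0.122 over the 28, so none could pass a threshold of 0.05 in this design. The ratio of a row with all levels higher at 4 dpa to a row with all levels lower cannot overlap. Such ratios among the 23 repeat the row results above. The share over all pairs of miRNAs was not computed. miR-27b-3p tags per miR-27d-3p tag were 3.24, 2.40 and 2.87 in the 4 dpa libraries, against 0.865, 0.901 and 1.11 in the 0 dpa libraries. Per miR-27c-3p tag they were 6.59, 6.05 and 6.79 at 4 dpa against 1.72, 1.59 and 1.35 at 0 dpa. Per miR-27e-3p tag they were 67.2, 67.9 and 56.7 at 4 dpa against 14.8, 16.7 and 16.2 at 0 dpa. The weight of the tags thus shifted to the miR-27b-3p row against each row of the same seed. On the log2 scale the shift was 1.56 against miR-27d-3p, 2.07 against miR-27c-3p and 2.00 against miR-27e-3p. The miR-27d-3p tag is the miR-27b-3p tag less its last base, so the shift of 1.56 cannot be assigned to separate genes. Tag lengths differ as well, with 21 bases for miR-27b-3p and miR-27e-3p and 20 for miR-27c-3p and miR-27d-3p. Between rows of 20 bases, miR-27d-3p against miR-27c-3p, the shift was 0.51. The part of tag length in these ratios was not tested. The 5 ratios that overlapped were miR-23a-3p to miR-24-3p, miR-27e-3p to miR-27c-3p (difference 0.07, exact permutation p = 0.7), miR-27a-5p to miR-27b-3p (0.28, p = 0.8), miR-23b-3p to miR-27a-5p (0.34, p = 0.2) and miR-23b-3p to miR-27b-3p (0.62, p = 0.3). All 5 lie within the rows that were higher or within the rows that were lower, since ratios between higher and lower rows could not overlap and those with miR-27d-3p did not. The spread of several of these 5 ratios is wide, with an SD of 0.79 for miR-27a-5p to miR-27b-3p at 0 dpa.

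The members covered a wide range of tag counts. In the 4 dpa libraries the order of mean level was miR-27b-3p (13.54), miR-27d-3p (12.05), miR-27c-3p (10.85), miR-27a-5p (10.40), miR-23b-3p (8.67), miR-23a-3p (7.77), miR-27e-3p (7.56) and miR-24-3p (6.13), and of these neighbours only miR-23a-3p and miR-27e-3p overlapped. In the 0 dpa libraries it was miR-27d-3p (12.18), miR-27b-3p (12.11), miR-27c-3p (11.49), miR-23a-3p (9.08), miR-27a-5p (8.69), miR-27e-3p (8.12), miR-24-3p (7.44) and miR-23b-3p (6.62). There miR-27d-3p and miR-27b-3p overlapped, as did miR-23a-3p with miR-27a-5p and miR-27a-5p with miR-27e-3p. miR-23b-3p was thus the least counted member at 0 dpa and stood above miR-23a-3p, miR-27e-3p and miR-24-3p at 4 dpa. These are orders of tag counts, which also depend on how well each sequence is captured in a library.

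The length of the tag moved with the change. The members' tags of 24 bases, miR-23b-3p and miR-27a-5p, had the highest fold-changes of the family. Those of 20 bases, miR-24-3p, miR-27c-3p and miR-27d-3p, were lower or not called, and those of 21 bases held miR-27b-3p, miR-23a-3p and miR-27e-3p. Outside the family there were no rows with 20-base tags, and the 24-base rows stood apart from the other lengths. Of the 9 other rows with 24-base tags, 8 were called higher and 0 lower, with 1 not called and a median log2 fold-change of 1.19 (1.25 above the median of all rows). Of the 18 other rows with 21-base tags, 3 were called higher and 5 lower, with a median of −0.36, of the 85 rows with 22-base tags 15 were called higher and 18 lower, and the 27 rows with 23-base tags had a median of −0.02. Other 24-base rows held 7.90%, 7.11% and 7.27% of the tags other than miR-21 in the 4 dpa libraries, against 4.14%, 4.29% and 3.76% in the 0 dpa libraries. Across miRNAs, Spearman's rho between tag length and log2 fold-change was 0.28 over all 148 rows and 0.24 over the 140 rows outside the family, given as a description since rows of a family share sequence. The part that tag length has in the members' changes was not tested.

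**Figure D3:**
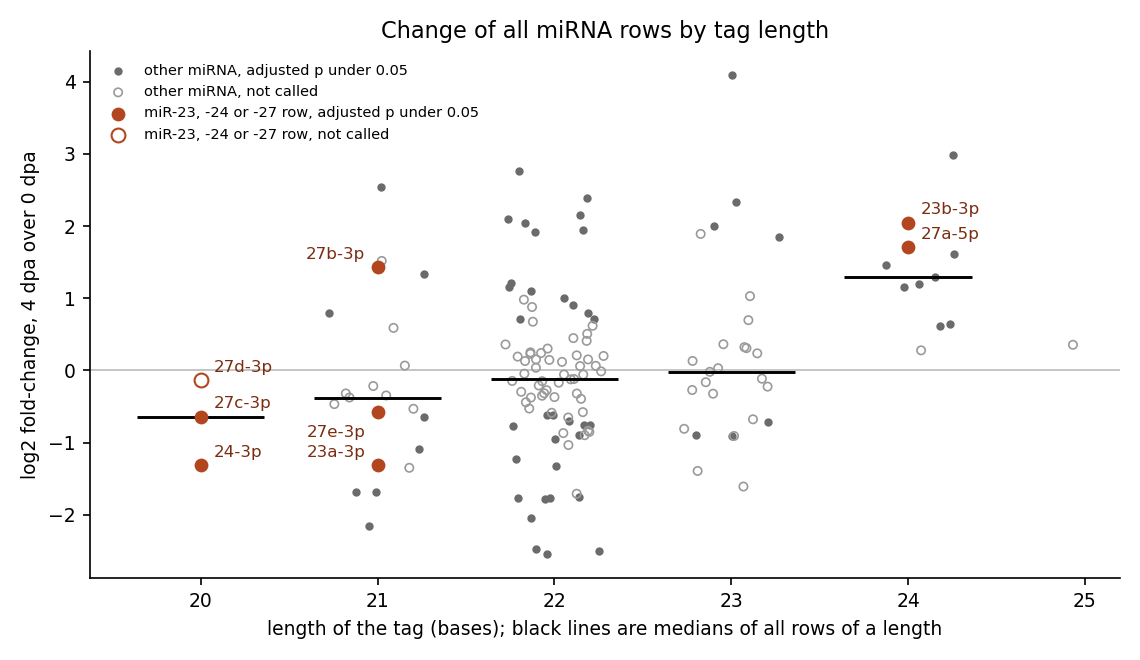
Log2 fold-change (4 dpa over 0 dpa) of all 148 miRNA rows against the length of the counted tag in bases; points are spread sideways within a length, black lines are medians of all rows of a length, and family rows are labelled. Of the 11 rows with 24 bases, miR-23b-3p and miR-27a-5p among them, 10 were called higher and 0 lower.

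The miRNAs with the most similar pattern were sought among the 95 rows with a mean scaled level of at least 6, by Pearson's r of scaled levels over the 6 libraries, as a description. Since the 6 libraries form 2 days, r mostly reflects the day. For miR-23b-3p these were miR-222a-3p (r = 0.995) and miR-31-5p (0.986), and the same rows came out for miR-27a-5p (0.981 and 0.980). For miR-27b-3p they were miR-15b-5p (0.986) and miR-30d-5p (0.980). miR-23a-3p was most like miR-203b-3p (0.994) and miR-16c-3p (0.979). miR-24-3p and miR-27e-3p were most like the rows of miR-200a-3p and miR-141-3p, which hold identical values (0.985 and 0.958), and miR-27c-3p was most like miR-2184-5p and miR-26b-5p (both 0.968). miR-27d-3p followed miR-193b-3p (0.906) and miR-192-5p (0.742) less closely.

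Because the clusters are known from vessels, endothelial RNAs were read in the same tissue. miR-126a-5p, an endothelial miRNA, had 547, 626 and 517 tags in the 4 dpa libraries, against 981, 1880 and 712 tags in the 0 dpa libraries. Its scaled levels overlapped, with a log2 fold-change of 0.07 (adjusted p = 0.769 in limma, SE 0.17), and with scaling to all tags it was called lower, at −1.38 (limma adjusted p = 0.00016). In the mRNA libraries, which held 17928712 to 25223147 reads, 62.1% of the 16951 genes were called, 31.0% higher and 31.2% lower at 4 dpa. Of 23 endothelial genes listed, 11 were matched by name, and 7 of these were called higher and 1 lower, with a median log2 fold-change of 0.42 against 0.00 over all genes. The endothelial genes cdh5, kdrl and pecam1 were not matched and are not analysed here. FLI1 (ENSDARG00000054632), a transcription factor of vessels and blood, had 16.2, 17.6 and 19.97 CPM, the read count scaled to library size, at 4 dpa against 6.19, 8.44 and 9.26 CPM at 0 dpa, a log2 fold-change of 1.11 (adjusted p = 0.00038 in limma, SE 0.15). TIE1 (ENSDARG00000004105), an endothelial receptor kinase, had 7.72, 9.30 and 8.89 CPM at 4 dpa against 5.66, 6.22 and 4.92 CPM at 0 dpa, a log2 fold-change of 0.57 (adjusted p = 0.0048 in limma, SE 0.13). No overlap was seen for either gene. Named after their values were seen, the vessel transcription factor SOX7 (ENSDARG00000030125) was the gene called lower, with 3.18, 4.50 and 5.56 CPM at 4 dpa against 10.6, 8.07 and 7.17 CPM at 0 dpa and a log2 fold-change of −0.82 (adjusted p = 0.0074 in limma, SE 0.20), and the growth factor receptor KDR (ENSDARG00000017321) had −0.25 and was not called (limma adjusted p = 0.155). The summed level of the 11 genes was 183 to 214 CPM at 4 dpa and 90.2 to 119 CPM at 0 dpa, no matched gene was at 0, and without plvapb, the most abundant of them, it was 56.6 to 68.3 CPM at 4 dpa and 45.4 to 49.4 CPM at 0 dpa. The part that endothelial cells have in the members' changes was not tested.

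The mRNA of aopep (ENSDARG00000068461), the gene that spans the chromosome 8 cluster with mir27b and mir23b-2, was higher at 4 dpa. It had 36.4, 41.7 and 36.5 CPM in the 4 dpa libraries, against 22.1, 25.9 and 27.8 CPM in the 0 dpa libraries. The days did not overlap, and the log2 fold-change was 0.60 (adjusted p = 0.0018 in limma, SE 0.11), staying within 0.52 to 0.67 as each library was left out. miR-27b-3p and miR-23b-3p were higher as well in the trimmed scaling. Neither was called without further scaling or with scaling to all tags, where miR-27b-3p was −0.02. The miR-27d-3p row, whose whole tag was in the miR-27b precursor alone, was not called (−0.13, limma adjusted p = 0.635). Counted as 1 row with miR-27b-3p, a choice made after seeing the data, the log2 fold-change was 0.83. The miR-23b-3p row counts the cluster's mir23b-2 along with the miR-23b gene of chromosome 10. The miR-24-3p row, which counts the cluster's mir24-3 along with the other miR-24 genes, was lower. Whether the levels of aopep and of these miRNAs are linked was not tested. mRNA and small RNA libraries were scaled separately, so the sizes are not compared. The gene that spans the chromosome 10 cluster, apba1b, was not matched by name among the mRNAs and is not analysed here.

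The known targets were genes reported in other work as lowered by miR-23, miR-24 or miR-27, mostly in mammalian cells. Of 23 names 19 were matched, giving 24 zebrafish genes with copies, of which 17 were called, 10 higher and 7 lower. That is read against 62.1% of all genes called, with 31.0% higher and 31.2% lower. The days did not overlap for 19 of the 24, against 68.1% of all genes. Their median log2 fold-change was 0.06, against 0.00 over all genes. Without 4 dpa mRNA library 1 the count was 11, with 8 higher and 3 lower, against 4556 higher and 4544 lower of all genes in that fit. With libraries scaled to total reads, which moves the median of all genes to 0.24, it was 14, with 11 higher and 3 lower, against 7518 higher and 3595 lower of all genes in that scaling.

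Of the 5 genes listed for miR-23, 1 was higher and 3 lower. HAS2 (ENSDARG00000036987), which makes hyaluronan and is a known miR-23 target in the zebrafish heart, had 11.9, 13.5 and 19.0 CPM in the 4 dpa libraries, against 2.64, 3.43 and 3.51 CPM in the 0 dpa libraries, a log2 fold-change of 1.92 (adjusted p = 4.9e-05 in limma, SE 0.18). It was the largest rise of the list. The muscle-wasting ubiquitin ligases FBXO32 and trim63a, targets of mouse miR-23a, were lower. FBXO32 (ENSDARG00000040277) had 2.66, 3.77 and 2.22 CPM at 4 dpa against 13.1, 5.99 and 4.63 CPM at 0 dpa, a log2 fold-change of −1.08 (limma adjusted p = 0.0185). Leaving out 4 dpa library 1 or 3 ended that call, with an adjusted p of 0.0515 and 0.0675. trim63a (ENSDARG00000028027) had 5, 4 and 0 reads at 4 dpa against 23, 21 and 29 reads at 0 dpa, while trim63b (ENSDARG00000086685) had 25, 27 and 22 reads at 4 dpa against 23, 22 and 16 reads at 0 dpa and was not called.

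Of the 7 genes listed for miR-27, 3 were higher and 2 lower. dll4 (ENSDARG00000070425), the Notch ligand of vessel tip cells, had 5.21, 5.63 and 6.59 CPM in the 4 dpa libraries, against 7.19, 12.6 and 10.7 CPM in the 0 dpa libraries, a log2 fold-change of −0.67 (adjusted p = 0.0144 in limma, SE 0.19). SPRY2 (ENSDARG00000078308), an inhibitor of growth factor signalling that is listed for miR-23 too, had 39.1, 40.5 and 45.3 CPM at 4 dpa against 50.2, 52.7 and 50.7 CPM at 0 dpa, a log2 fold-change of −0.28 (adjusted p = 0.0273 in limma, SE 0.09). The days did not overlap for these genes, and both calls are fragile. With scaling to total reads dll4 had −0.42 (adjusted p = 0.0676) and SPRY2 0.00 (adjusted p = 0.972), and without 4 dpa mRNA library 1 their adjusted p was 0.0509 and 0.115. SPRY2 also lost its call without 4 dpa library 2 and without 0 dpa libraries 2 or 3. MEF2C (ENSDARG00000009418), a muscle and vessel transcription factor, rose by 0.68, and its other copy (ENSDARG00000029764) had −0.16 and was not called. ptk2ab, the focal adhesion kinase that miR-27 is known to act on in the zebrafish jaw, rose by 0.39 and APC, a Wnt pathway inhibitor, by 0.38, both losing the call without 4 dpa mRNA library 1 (adjusted p = 0.0547 and 0.0683). FOXO1 had 0.30 and was not called (adjusted p = 0.0622).

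Of the 13 genes listed for miR-24, 6 were higher and 3 lower. Among the higher were the DNA damage histone h2ax (ENSDARG00000029406), the cell-cycle factor e2f2, the nucleotide enzyme dhfr and 1 copy of MYC (ENSDARG00000045695), genes of dividing cells that miR-24 lowers in human cells. h2ax had 20.5, 21.8 and 21.5 CPM in the 4 dpa libraries, against 7.19, 7.10 and 7.95 CPM in the 0 dpa libraries, a log2 fold-change of 1.42 (adjusted p = 1.03e-05 in limma, SE 0.10). The log2 fold-change was 0.97 for e2f2, 0.94 for dhfr and 1.12 for that MYC copy. The protein convertase FURIN (ENSDARG00000070971) rose by 1.33 and bcl2l11, a cell death gene, by 0.93. gata2b (ENSDARG00000009094), a blood and vessel transcription factor, had 1.18, 1.09 and 1.495 CPM at 4 dpa against 4.39, 4.22 and 4.05 CPM at 0 dpa, a log2 fold-change of −1.20 (adjusted p = 8.8e-05 in limma, SE 0.13). insig1, of sterol sensing, was lower at −0.66 and the other MYC copy (ENSDARG00000007241) at −0.39, and both lost the call with scaling to total reads (adjusted p = 0.0896 and 0.481). That MYC copy also lost it without 4 dpa library 1 or 2 and without 0 dpa library 3. The other FURIN copy (0.08), PAK4 (−0.17) and both ACVR1B copies (−0.08 and −0.14) were not called.

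**Figure D4:**
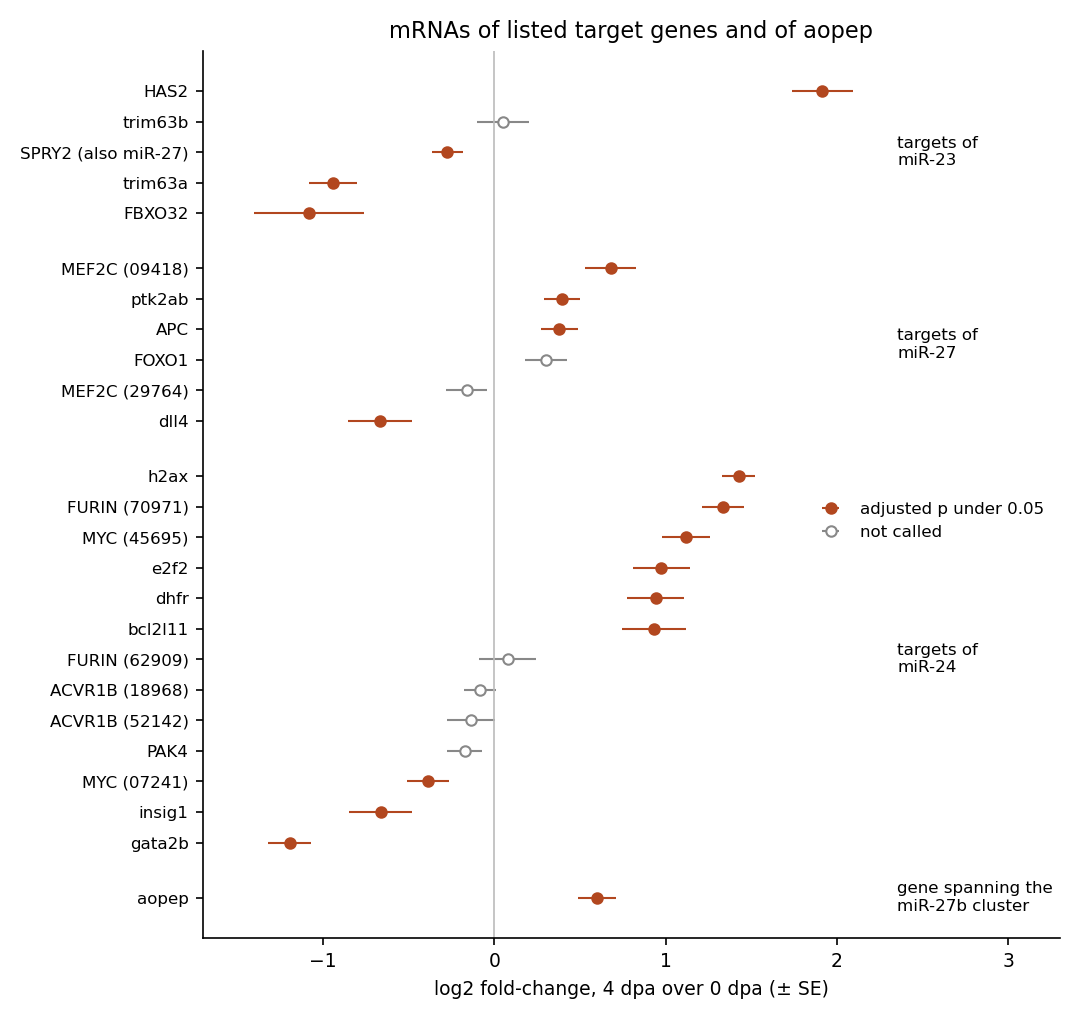
Log2 fold-change of mRNA (4 dpa over 0 dpa, ± SE from limma) for the 24 listed target genes, by miRNA, and for aopep; filled points have an adjusted p under 0.05, and the digits in brackets end the identifier of each copy. Targets lay on both sides of 0 for each miRNA, from 1.92 for HAS2 to −1.20 for gata2b.

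For each of the 3 miRNAs the listed targets moved in both directions. Those called were 4 of 5 for miR-23, 5 of 7 for miR-27 and 9 of 13 for miR-24, beside 62.1% of all genes. The median log2 fold-change was −0.28 for the targets of miR-23, 0.30 for those of miR-27 and 0.08 for those of miR-24, beside 0.00 over all genes. These medians rest on 5 to 13 genes, with copies of 1 gene counted separately, and reads of near-identical copies may have been split between them. A role of the miRNAs in these mRNA levels was not tested.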

How the data were processed

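The authors clipped and quality-trimmed small RNA reads, collapsed them into tags, annotated them against miRBase and the Zv9 assembly, and took tag counts. The small RNA table, as deposited, is named log CPM, and the design assumed that unit; its values were instead log2(tag count + 1), since all came out whole within 0.01. The deposited mRNA values were log2(CPM + 1) over library sizes adjusted by the authors. The submitters' processing notes name Trimmomatic, RSEM and edgeR, with no roles. Table totals are not the whole depth of the libraries. No column was left unused.

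Libraries were put on a common scale by a trimmed mean of the log ratios to the mean library (30% of ratios and 5% of levels trimmed at each end), then fitted with limma 3.58.1 in R 4.3.3 (lmFit, eBayes with trend) without covariates, adjusted by Benjamini-Hochberg over all rows of each table. Genes with few reads have understated fold-changes on this scale. Ratios and shares were computed from tag counts, ratios with 1 added, by two-sided exact permutation tests in SciPy 1.17.1 under Python 3.11.15, and plots used Matplotlib 3.10.9. The text names every member, the 2 miRNAs most like each, miR-126a-5p, miR-21, each matched target, aopep, and from the endothelial list cdh5, kdrl, pecam1, tie1 and fli1a where matched. 1 further target was taken off the list and is not reported here. Human-style symbols cover several zebrafish copies. The members and lists were chosen with earlier results of these data known. Libraries of a day were not repeat counts, and whether pools shared fish is not stated, so p-values measure the spread between these libraries. Counting precision covers counting error only. Alternatives were other scalings, limma-voom, filters, a fold minimum, a replicate block and each library left out.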

Additional observations from a re-analysis of the deposited data

How the results depend on the processing

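Of the 148 miRNAs, 63 were called, against 111 with scaling to all tags and 41 with a 2-fold minimum. The 7 called members became 4 without further scaling, all lower. miR-27b-3p turned to −0.0175 with scaling to all tags, and miR-126a-5p to −1.38, where it was called lower. SPRY2 turned to 0.0038 with scaling to total reads. With a 2-fold minimum, 3683 of the 10532 called genes, 6 of the 17 targets and 2 of the 8 endothelial genes were left. The share of miR-27b-3p differed by 25.5 points without miR-27c-3p in the total and by 14.7 points with miR-27d-3p tags counted as miR-27b-3p. As each library was left out in turn, the counts ran from 43 to 71 miRNAs, 5 to 7 members, 23 to 24 ratios without overlap, 9100 to 10169 genes, 11 to 17 targets and 6 to 7 endothelial genes, and the share difference from 28.2 to 30.8 points. The causes were not tested.

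For single miRNAs and genes, 192 of the values under the other settings kept direction and side of the threshold, 11 lost the call and 2 gained it. The 3 reversals are given above, and 5 values not called in either setting changed sign (miR-126a-5p without further scaling, and PAK4, both ACVR1B copies and MEF2C ENSDARG00000029764 with scaling to total reads). Of the values with a library left out, 188 kept both, 22 lost the call and 6 not called in either fit changed sign (miR-27d-3p, miR-126a-5p, trim63b and FURIN ENSDARG00000062909). Among the members, miR-27c-3p and miR-27e-3p lost the call with quantile normalization (adjusted p = 0.0629 and 0.0863).

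Whether library numbers pair the days is not stated, and the main fits left them unpaired. The correlation of deviations between same-numbered libraries was −0.43, −0.01 and 0.09 for small RNA and 0.15, −0.00 and 0.15 for mRNA. With so few libraries per day these values cannot decide whether the days are paired. With a replicate block, 58 miRNAs, 6 members, 10486 genes, 17 targets and 6 endothelial genes were called, with miR-27e-3p not called (adjusted p = 0.108), and the share difference was 29.4 points. Rows with few tags, such as miR-24-3p at 4 dpa with 45 to 51, are limited by depth.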
